A study of Mus musculus with 8 samples.

Results

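The claudins, tight junction and polarity genes described here are 35 mouse genes, 18 claudins and 17 other junction, polarity and adhesion genes, chosen by name with results of the same comparison already known. Every probe whose systematic name is a RefSeq transcript of such a gene was taken, which gave 44 of the 55681 non-control probes on the array. Of the 35 genes, 34 had a probe that passed the filter on dim signal, out of 23343 genes tested. The samples were ureteric bud cells, taken by flow sorting for GFP from the kidneys of C57BL/6 mice at postnatal day 0. Collecting ducts arise from the ureteric bud, a branching epithelial tube. In the 4 KO samples (DOT1-null) Dot1 had been deleted conditionally from Hoxb7-positive cells, and the 4 WT samples were wild-type controls. The labels give no driver for GFP or for the deletion, and do not say how many animals made up a sample. All groups share the sort for GFP, the age and the strain. Arrays carry the names KO 1 to KO 4 and WT 1 to WT 4.

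Tight junctions seal the space between neighbouring epithelial cells. Claudins are membrane proteins whose strands form the seal, and the mix of claudins in a segment sets which ions pass between its cells. Occludin and its relatives lie in the same strands, plaque proteins such as ZO-1 and cingulin tie the strands to actin, and the PAR and Crumbs complexes mark the apical side and place the junction. E-cadherin holds the adherens junction beneath. In the kidney, proximal tubule, loop of Henle and collecting duct each carry their own set of claudins.

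Each value below is a log2 ratio, with the sample labelled in Cy5 over WT 3 RNA labelled in Cy3 on every array, after background correction and loess normalisation within the array. The WT 3 array is that RNA against itself, so its ratio for a probe is the dye offset of the probe and not a level. No ratio is set against that of another gene. Each difference is KO minus WT with its standard error (SE) from limma's fit over all genes, with 4 arrays per group unless stated. Because the genes were chosen on this contrast, their differences, and the counts of those past a threshold, describe the fit and are not offered as tests of single genes. Values with each array centred on its median in place of loess are given too, and are to be read against a median of -0.30 over all genes under that setting.

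The KO arrays were not alike. On the first principal component, which held 55.8% of the variance, KO 1, KO 3 and KO 4 lay between -50.21 and -24.16, whereas KO 2 lay at 19.89, among the WT arrays at 18.40 to 25.72. On KO 3, 95.2% of spots had Cy5 well above background, against 59.1% to 68.9% on the other KO arrays and 52.4% to 56.2% on the WT arrays, and 7665 spots were marked as outliers, against at most 216 on any other array. Results are therefore given with and without KO 2, and without KO 3 where that moves them. The arrays shared 1 slide, on which each genotype filled its own row, and a row effect and a genotype effect cannot be told apart. Dot1l, the targeted gene, differed by 0.18 ± 0.11 at its single probe, and the sources used here do not say whether that probe lies in the deleted stretch, so Dot1l does not check the labels. Hoxb7, a ureteric bud marker, was at -0.59, -0.53, -0.64 and -0.79 on KO 1 to KO 4, against 0.11, 0.07, 0.04 and 0.05 on WT 1 to WT 4, so for this gene KO 2 lay with the other KO arrays. All 18 ureteric bud markers were well above background on all 8 arrays. So were all 10 endothelial markers and all 10 proximal tubule markers, and 8 of 9 loop and distal tubule markers, and these are given beside the claudins of those cells.

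In KO cells the claudins did not move as a block. Cldn8, a claudin of the collecting duct, was higher by 0.79 ± 0.15 on the log2 scale (1.73-fold) on all 4 KO arrays. Cldn6 and Cldn9, neighbouring genes known for expression in fetal and newborn epithelium, were lower, with differences of -0.87 ± 0.09 and -0.47 ± 0.14, Cldn6 on each of the 3 KO arrays that measured it. Cldn3, another claudin of the collecting duct, was lower on all 4 KO arrays, with a difference of -0.41 ± 0.11. Among the other genes the plaque protein genes Cgn (0.80 ± 0.20) and Tjp1 (0.49 ± 0.13) had the largest positive differences, with the kidney cadherin Cdh16 (0.47 ± 0.14), and the polarity genes Crb3 (-0.50 ± 0.13) and Pard6a (-0.46 ± 0.15) the largest negative ones at the brightest probe of each gene. For Pard3, 3 dimmer probes gave larger negative differences.

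Of the 17 measured claudins 8 had a positive difference and 9 a negative one, with a median of -0.07. Of the 17 other genes 9 were positive and 8 negative, with a median of 0.03. The median over all genes tested was -0.02. No member passed limma's adjusted p threshold of 0.05 over all genes, which 0.00857% of the genes tested did. An unadjusted p under 0.05 was found for 5 claudins and 5 other genes, where 24.1% of all genes tested had one. For 4 of the 33 members with values on all 8 arrays the groups were fully separate, Cldn8 and Cgn higher in KO and Cldn3 and Crb3 lower, beside 11.5% of all genes (3.85% higher and 7.64% lower). Without KO 2, 9 members passed, 4 higher in KO (Cldn8, Tjp1, Cgn and Cdh16) and 5 lower (Cldn3, Cldn6, Cldn9, Pard6a and Crb3), where 10% of all genes passed as higher and 11.2% as lower. The same 9 passed without KO 2 and KO 3, where 13.5% of all genes passed as higher and 10.1% as lower. Without KO 3 alone Cldn6 was the only member that passed, in a background of 0.0343%. These counts come from the contrast on which the genes were chosen and are not read further.

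**Figure D1:**
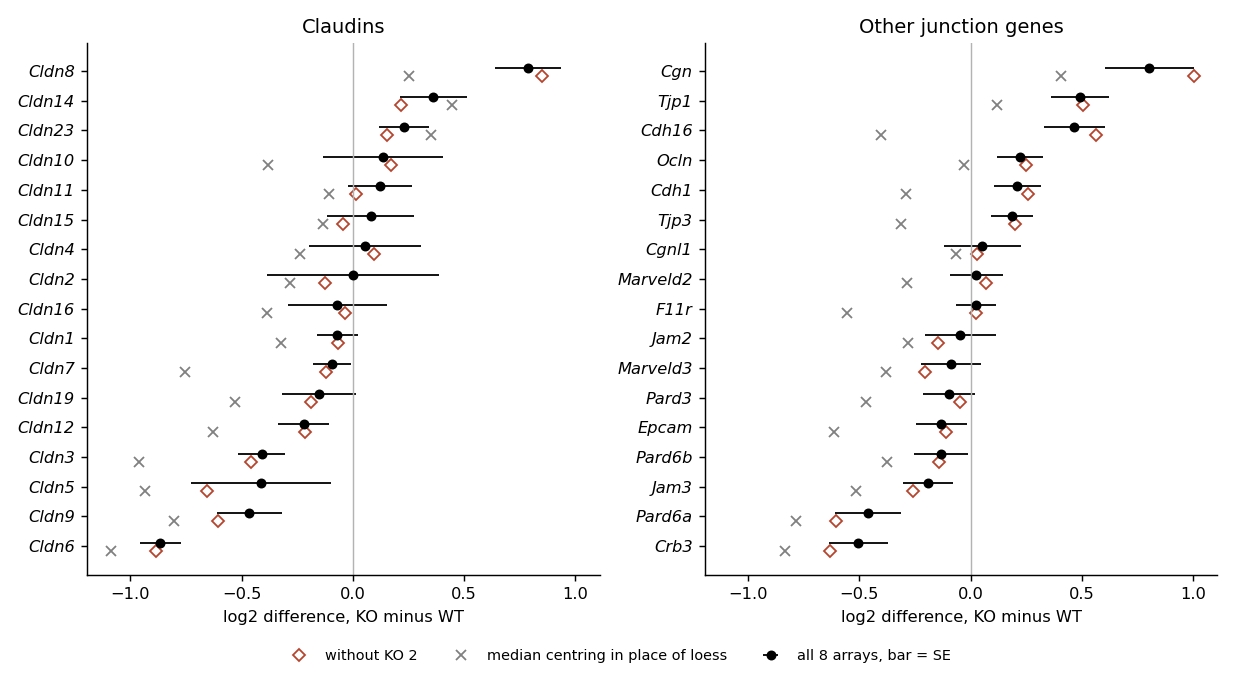
Log2 difference, KO minus WT, of each measured claudin (left) and each other junction gene (right), on the horizontal axis. Black points are the fit on all 8 arrays with its SE as a bar, open diamonds the fit without KO 2, and grey crosses the fit with each array centred on its median in place of loess. Cldn8 (0.79) and Cgn (0.80) lie farthest to the right and Cldn6 (-0.87) farthest to the left, and every cross lies left of its point except those of Cldn14 and Cldn23.

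The promoters of Cldn6, Cldn3, Cgn and Crb3 are printed because these genes carry the largest differences or arrays that do not overlap, and because they have an entry in the RefSeq promoter table of the build GRCm38.p6. Cldn8, Cldn9, Cdh1 and Cdh16 have no entry there, and 27 of the 35 genes do. Each line runs 5′ to 3′ on the strand of the gene and ends at the base before its start. Capitals mark every match, on either strand, to GGGCGG (the GC box, bound by Sp factors), CACCTG (the E-box bound by Snail and Zeb repressors) or AACNNGTT (a pair of half-sites of the kind bound by grainyhead-like factors).

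Cldn6 promoter, chr17:23679115-23679364, + strand: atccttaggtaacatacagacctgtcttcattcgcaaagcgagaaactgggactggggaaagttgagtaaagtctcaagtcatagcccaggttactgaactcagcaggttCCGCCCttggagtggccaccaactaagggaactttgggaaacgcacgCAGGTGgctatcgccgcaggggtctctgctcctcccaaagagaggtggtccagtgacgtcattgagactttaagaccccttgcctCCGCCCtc

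Cldn3 promoter, chr5:134985964-134986213, + strand: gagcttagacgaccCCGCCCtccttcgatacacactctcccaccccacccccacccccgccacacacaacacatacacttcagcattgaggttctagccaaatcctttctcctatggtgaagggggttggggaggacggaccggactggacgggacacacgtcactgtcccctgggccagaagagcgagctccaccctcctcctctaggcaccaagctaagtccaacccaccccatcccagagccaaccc

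Cgn promoter, chr3:94786483-94786732, - strand: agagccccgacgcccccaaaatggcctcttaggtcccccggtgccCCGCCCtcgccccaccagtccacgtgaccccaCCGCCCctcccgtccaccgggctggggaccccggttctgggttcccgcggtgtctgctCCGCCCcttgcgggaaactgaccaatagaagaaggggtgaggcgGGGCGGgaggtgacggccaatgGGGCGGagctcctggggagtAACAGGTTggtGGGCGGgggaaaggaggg

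Crb3 promoter, chr17:57061951-57062200, + strand: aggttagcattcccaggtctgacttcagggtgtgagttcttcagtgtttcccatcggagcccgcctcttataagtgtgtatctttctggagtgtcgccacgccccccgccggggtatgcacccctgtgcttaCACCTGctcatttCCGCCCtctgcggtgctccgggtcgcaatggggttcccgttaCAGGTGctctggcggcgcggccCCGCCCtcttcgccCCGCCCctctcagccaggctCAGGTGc

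In these windows Cldn6 has an E-box at -93 and GC boxes at -140 and -8, counted from the gene's start to the first base of the match. Cldn3 has a single GC box at -236. Cgn has the grainyhead-like pattern at -29 and 6 GC boxes, and no match to the E-box. Crb3 has E-boxes at -118, -63 and -7 and GC boxes at -105, -41 and -27. Counted from a second annotated start of Crb3, the same E-boxes lie at -148, -93 and -37 and the GC boxes at -135, -71 and -57. Over the 41 windows of the 27 genes, 2 (4.88%) held AACNNGTT, those of Cgn and Cldn5, against 3.64% of 32851 promoters in the table. CACCTG was found in 13 of the 41 (31.7%, against 17.2% of all), and GGGCGG in 27 (65.9%, against 32.7% of all). Several windows of one gene overlap, so the 41 are not independent. A match describes the letters in the window and is no evidence that a factor binds there.

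Cldn3, Cldn4, Cldn7 and Cldn8 are the claudins known from the collecting duct, the structure the ureteric bud gives rise to. Their summed Cy5 signal was 35820 to 49160 over the KO arrays and 34470 to 44680 over the WT arrays, and all 4 were well above background on all 8. Summed Cy5, here and below, is raw median signal without background correction or normalisation, so it also carries the brightness of the array. The median Cy5 of all spots was 122, 137, 636 and 126 on KO 1 to KO 4, against 93.5 to 108 on the WT arrays. Cldn8, which pairs with claudin-4 in the chloride path of the collecting duct, had log2 ratios of 0.59, 0.24, 0.14 and 0.73 on KO 1 to KO 4, against -0.42, -0.55, -0.14 and -0.35 on WT 1 to WT 4. Every KO array lay above every WT array, KO 2 included, although KO 2 and KO 3 were the lowest of the KO arrays. The difference was 0.85 without KO 2, 0.88 without KO 3 and 1.02 without both, and shrank to 0.25 when each array was centred on its median in place of loess, with the sign kept.

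Cldn3, a sealing claudin, had log2 ratios of -0.38, -0.41, -0.68 and -0.72 on KO 1 to KO 4, against -0.23, -0.16, -0.01 and -0.14 on WT 1 to WT 4. The groups did not overlap, with KO 1 and WT 1 the nearest arrays. Its difference was -0.46 without KO 2, -0.37 without KO 3, and -0.96 with median centring. Cldn4, whose gene lies beside Cldn3 on chromosome 5, did not go the same way: its ratios were 0.81, 0.27, -0.33 and 0.80 on KO 1 to KO 4, against 0.54, 0.11, 0.07 and 0.62 on WT 1 to WT 4. KO 1 and KO 4 were above all WT arrays and KO 3 below them all, and the difference was 0.06 ± 0.25, with -0.08 without KO 1 and 0.29 without KO 3 as limits when single arrays are left out. A second Cldn4 probe gave 0.36, with the spot on KO 3 marked as an outlier and left out. Cldn7, which is found along the sides of collecting duct cells, had ratios from -0.79 to -0.59 on the KO arrays and from -0.71 to -0.52 on the WT arrays, and a difference of -0.09 ± 0.09. WT 1, WT 2 and WT 3 lay above every KO array, and WT 4 lay among the KO arrays.

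Cldn6 and Cldn9 lie next to each other on chromosome 17. Cldn6 had log2 ratios of -0.17, -0.22 and -0.38 on KO 1, KO 2 and KO 4, against 0.59, 0.58, 0.69 and 0.57 on WT 1 to WT 4. The KO 3 spot was marked as an outlier and left out, and stood at -0.05 when kept, still below every WT array. The 3 KO arrays lay apart from the WT arrays by more than the whole range within either group, and KO 2 sat between KO 1 and KO 4. The difference of -0.87 ± 0.09 is a level 1.82-fold lower in KO (n = 3 KO and 4 WT arrays). It ranged from -1.09 to -0.80 over 23 other processing settings and array sets.

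Cldn9 had log2 ratios of -0.09, 0.37, -0.38 and -0.10 on KO 1 to KO 4, against 0.40, 0.32, 0.50 and 0.43 on WT 1 to WT 4. KO 1, KO 3 and KO 4 lay below all WT arrays, and KO 2 lay within them, so the neighbours differ in where KO 2 falls. Without KO 2 the difference was -0.60, without KO 3 it was -0.35. Ureteric bud markers also differed: 6 of 18 had a positive and 12 a negative difference, with a median of -0.23. Of the 17 complete ones, 1 (Krt18) lay wholly higher in KO and 4 wholly lower, beside 3.85% and 7.64% of all genes. The summed raw Cy5 of the marker list was 174200 to 241900 on the KO arrays and 140400 to 222200 on the WT arrays. Of this the keratin gene Krt18 alone gave 84723 to 110876 on the KO arrays and 52850.5 to 92232 on the WT arrays. The part of these markers in the claudin differences was not tested.

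**Figure D2:**
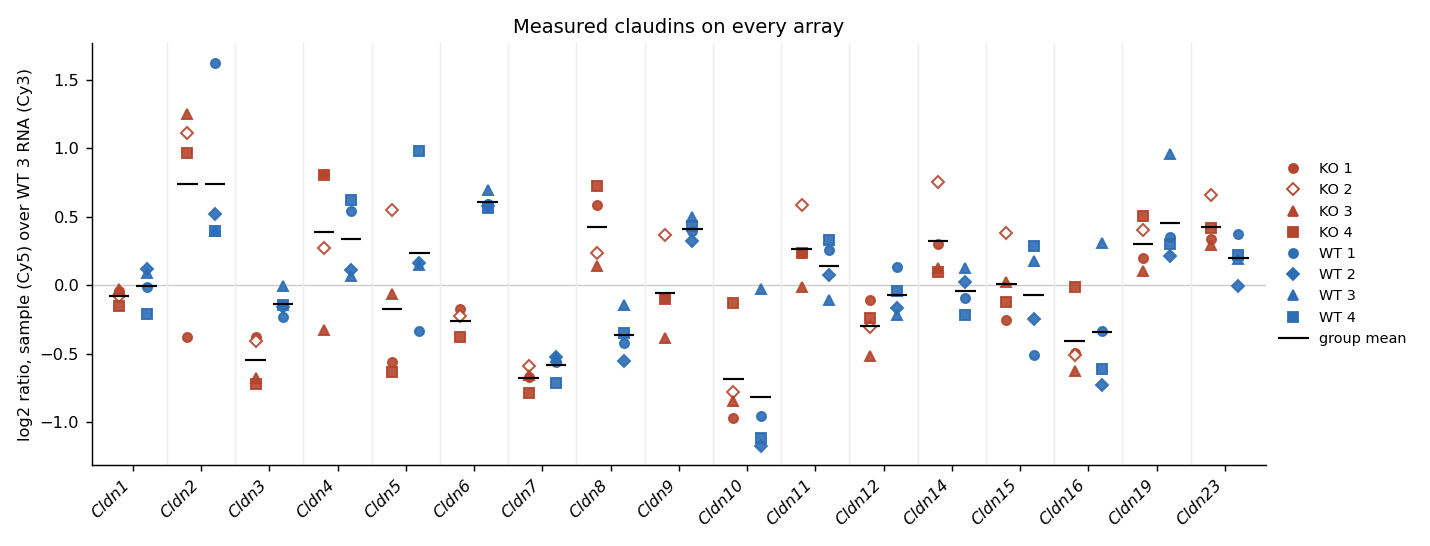
Log2 ratio of the sample (Cy5) to WT 3 RNA (Cy3) for the 17 measured claudins on every array, KO in red at the left of each pair and WT in blue at the right, with KO 2 as open diamonds and group means as bars. Cldn6 and Cldn3 lie lower on all KO arrays shown and Cldn8 higher, while the groups of Cldn2, Cldn4 and Cldn10 overlap and are wide. The outlier spot of Cldn6 on KO 3 is not drawn.

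The claudins of the loop of Henle and the distal tubule are Cldn10, which forms ion pores, Cldn16 and Cldn19, which together carry magnesium and calcium, and Cldn14, which opposes Cldn16. Cldn10 had log2 ratios of -0.97, -0.78, -0.85 and -0.13 on KO 1 to KO 4, against -0.96, -1.17, -0.03 and -1.12 on WT 1 to WT 4. The high WT array was WT 3, whose RNA is the common partner, and the other WT arrays lay near or below the KO arrays. Cldn16 gave -0.49, -0.51, -0.63 and -0.02 on KO 1 to KO 4, against -0.33, -0.73, 0.31 and -0.61 on WT 1 to WT 4, with WT 3 again the highest. Cldn19 gave 0.20, 0.40, 0.11 and 0.50 on KO 1 to KO 4, against 0.35, 0.21, 0.96 and 0.30 on WT 1 to WT 4, and here too WT 3 stood highest. The median of 9 loop and distal tubule markers, among them the uromodulin gene Umod, was -0.45, -0.56, -0.25 and -0.29 on KO 1 to KO 4, against -1.37, -1.14, 0.03 and -1.56 on WT 1 to WT 4. WT 3 was the highest WT array for these markers as well, and their summed Cy5 was 58390 to 81240 over the KO arrays and 43530 to 120300 over the WT arrays. The part of loop cells in the level of these claudins was not tested. The KO minus WT differences were 0.14 ± 0.27 for Cldn10, -0.07 ± 0.22 for Cldn16 and -0.15 ± 0.17 for Cldn19. Without WT 3 they were 0.40 for Cldn10, 0.15 for Cldn16 and 0.01 for Cldn19, so 2 of the 3 turned sign with that array. Cldn14 differed by 0.36 ± 0.15, with KO arrays from 0.10 to 0.75 and WT arrays from -0.22 to 0.12. KO 2 was its highest array, and without it the difference was 0.22. With the deposited log ratios the Cldn14 difference was 0.70, and its Cy3 was well above background on only 4 of 8 arrays.

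Cldn2, the cation and water pore of the proximal tubule, had log2 ratios of -0.38, 1.11, 1.25 and 0.96 on KO 1 to KO 4, against 1.62, 0.52, 0.40 and 0.40 on WT 1 to WT 4. The lowest and highest arrays were KO 1 and WT 1, and the group means were equal, with a difference of 0.00 ± 0.39. It was 0.37 without KO 1 and -0.17 without KO 3. Its second probe ranked KO 1 lowest and WT 1 highest too, and differed by -0.21. The median of 10 proximal tubule markers was -1.34, 0.02, 1.00 and 0.32 on KO 1 to KO 4, against 1.12, 0.08, -0.02 and -0.21 on WT 1 to WT 4, so KO 1 was the lowest and WT 1 the highest array for them also. The summed Cy5 of these markers was 19330 to 133800 over the KO arrays and 35610 to 126600 over the WT arrays.

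Cldn5, the claudin of endothelial cells, had log2 ratios of -0.56, 0.55, -0.06 and -0.63 on KO 1 to KO 4, against -0.33, 0.16, 0.15 and 0.98 on WT 1 to WT 4. WT 4 was the highest array and KO 2 the next, and the groups overlapped, with a difference of -0.41 ± 0.32, which was -0.66 without KO 2 and -0.17 without WT 4, the limits when single arrays are left out. The median of 10 endothelial markers was 0.30, 0.57, 0.45 and 0.31 on KO 1 to KO 4, against -0.13, -0.19, 0.23 and 1.19 on WT 1 to WT 4. KO 2 and WT 4 were the highest arrays of their groups for these markers as well, and KO 1 and KO 4 were the lowest KO arrays for both. But KO 1 and KO 4 lay below every WT array for Cldn5 and above WT 1, WT 2 and WT 3 for the markers. The marker differences had a median of 0.09, 6 positive and 4 negative, against -0.41 for Cldn5. Summed Cy5 of the endothelial markers was 23790 to 47820 over the KO arrays and 18340 to 58710 over the WT arrays, and their part in the Cldn5 values was not tested. In such sorted bulk samples, fewer cells of a type and less RNA per cell cannot be told apart.

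**Figure D3:**
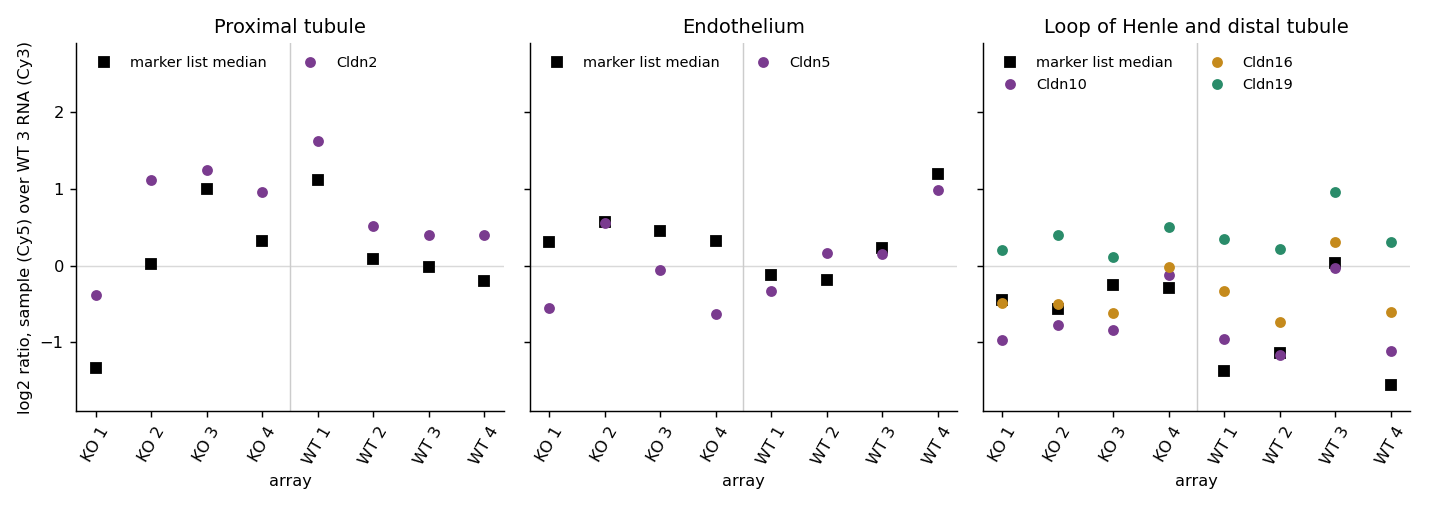
Log2 ratio on each array of claudins known from other kidney cells (coloured points) beside the median of a marker list for those cells (black squares), for proximal tubule, endothelium and the loop of Henle with the distal tubule. In the first panel KO 1 is lowest and WT 1 highest for both series, and in the third WT 3 is the highest WT array for the markers and for all 3 claudins.

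The remaining measured claudins had small differences in limma's fit. They were 0.23 for Cldn23, 0.12 for Cldn11 (a claudin of myelin and the testis) and 0.08 for Cldn15 (gut). Cldn1 (skin) differed by -0.07 and Cldn12 by -0.22. With the deposited log ratios Cldn23 differed by 0.71. Over the 12 claudins other than Cldn3, Cldn5, Cldn6, Cldn8 and Cldn9, differences ran from -0.22 to 0.36, 7 positive and 5 negative, and 10 lay within 2 SE of 0. Cldn18, a claudin of lung and stomach, was the 1 member not measured: its Cy5 was well above background on 2 KO arrays and 0 WT arrays. The arrays above background were KO 2 and KO 3, those with the most spots above background in all. The KO 3 spot was marked as an outlier and left out of the bound. From KO 1, KO 2 and KO 4, the bound for the brighter KO signal was at least 1.01-fold.

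Among the other genes the plaque proteins stood on the positive side: all 4 of Tjp1, Tjp3, Cgn and Cgnl1 had positive differences, with a median of 0.34. With median centring 2 of the 4 were positive and the median was 0.03. Cgn encodes cingulin, which links the junction to actomyosin. Its log2 ratios were 0.60, -0.26, 0.24 and 0.80 on KO 1 to KO 4, against -0.49, -0.57, -0.42 and -0.34 on WT 1 to WT 4. All KO arrays lay above all WT arrays, but KO 2 only just, next to WT 4. The difference of 0.80 ± 0.20 (1.75-fold) became 1.00 without KO 2 and 1.16 without KO 2 and KO 3, and 0.41 with median centring.

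Tjp1 encodes ZO-1, the scaffold that binds claudin tails. Its log2 ratios were 0.53, 0.43, 0.37 and 0.61 on KO 1 to KO 4, against -0.12, -0.20, -0.07 and 0.37 on WT 1 to WT 4. WT 4 stood well above the other WT arrays and met the lowest KO array, so the groups just overlapped. The difference was 0.51 without KO 2 and 0.12 with median centring. Tjp3, the ZO-3 gene, differed by 0.19 ± 0.10, and Cgnl1, the gene of paracingulin, by 0.05 ± 0.17.

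Ocln encodes occludin. Its log2 ratios were -0.17, -0.21, -0.18 and 0.06 on KO 1 to KO 4, against -0.25, -0.48, -0.19 and -0.47 on WT 1 to WT 4. The groups overlapped through KO 2 and WT 3, and the difference was 0.22 ± 0.10. A second probe of the same transcript gave -0.14, so the probes disagree in sign. Median centring gave -0.03 at the brighter probe, above the median of all genes under that setting. The other genes of this tetraspan group, Marveld2 (tricellulin, of the corners where several cells meet) and Marveld3, differed by 0.03 ± 0.12 and -0.09 ± 0.13. Of the junctional adhesion molecules, immunoglobulin-type proteins of the lateral membrane, F11r differed by 0.03 ± 0.09, Jam2 by -0.05 ± 0.16 and Jam3 by -0.19 ± 0.11.

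All 4 PAR and Crumbs genes had negative differences, with a median of -0.30, read at the brightest probe of each. Without KO 2 and KO 3 that of Pard3 was 0.03. Crb3, the apical Crumbs protein of mammalian epithelia, had log2 ratios of -0.33, 0.13, -0.43 and -0.37 on KO 1 to KO 4, against 0.15, 0.13, 0.39 and 0.35 on WT 1 to WT 4. KO 2 lay just below WT 2 and far above the other KO arrays. Without KO 2 the difference was -0.63. Its second probe gave -0.25, with groups that overlapped.

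Pard6a, which joins the PAR complex to atypical protein kinase C, had log2 ratios of -0.41, 0.11, -0.59 and -0.38 on KO 1 to KO 4, against 0.01, 0.04, 0.33 and 0.19 on WT 1 to WT 4. KO 2 lay within the WT arrays and the other KO arrays below all of them. The difference was -0.60 without KO 2 and -0.37 without KO 3. Pard6b, its close relative, differed by -0.13 ± 0.12.

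Pard3, the PAR scaffold itself, was read by 4 probes that disagree. The brightest, of transcript NM_001122850, had log2 ratios of 0.16, -0.19, -0.14 and 0.02 on KO 1 to KO 4, against 0.16, 0.22, 0.02 and -0.17 on WT 1 to WT 4. Those groups overlapped, with a difference of -0.10 ± 0.12. The other 3 Pard3 probes gave -0.53, -0.58 and -0.82, each with every KO array below every WT array. At the brightest probe of each gene, 7.64% of all genes lay wholly lower in KO. The Pard3 probes at -0.53 and -0.82 are of the same transcript. The Pard3 probe at -0.58, of NM_001013581, read -0.47, -0.37, -0.47 and -0.58 on KO 1 to KO 4, against 0.07, 0.28, 0.31 and -0.23 on WT 1 to WT 4. The Pard3 probe at -0.82, of NM_033620, read -0.24, 0.13, -0.26 and -0.76 on KO 1 to KO 4, against 0.61, 0.61, 0.56 and 0.37 on WT 1 to WT 4. KO 2 was the highest KO array on both. Which of these probes reads which exons of Pard3 was not analysed here. Of the 7 members with several probes, Pard3 was the only one with more than 1 probe whose groups did not overlap. It was also the only one with 4 probes, where each of the others had 2.

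**Figure D4:**
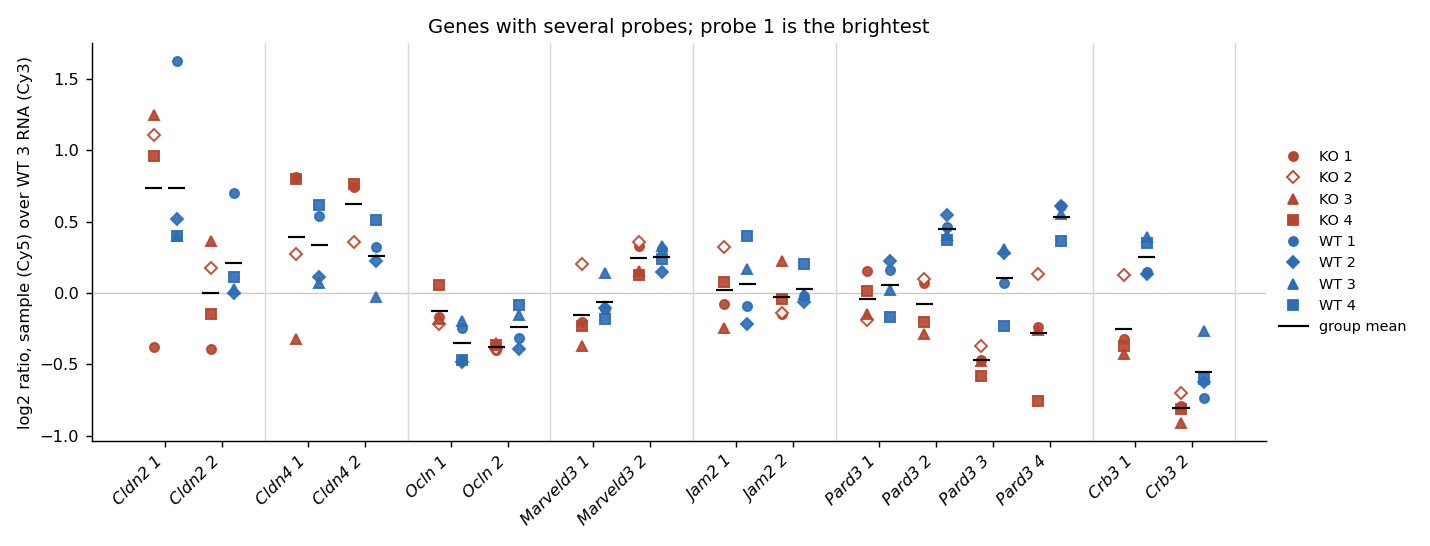
Log2 ratio of every probe of the 7 genes with several probes, KO in red at the left and WT in blue at the right of each probe, with group means as bars and probe 1 the brightest. Pard3 probes 2, 3 and 4 lie lower on every KO array while probe 1 does not, and the probes of Ocln and Cldn2 differ in sign or size.

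Cdh1 encodes E-cadherin. Its log2 ratios were -0.32, -0.41, -0.23 and -0.11 on KO 1 to KO 4, against -0.34, -0.70, -0.44 and -0.44 on WT 1 to WT 4. KO 2 fell among the WT arrays and the other KO arrays lay just above them. The difference of 0.21 ± 0.11 was 0.14 without WT 2. With median centring it was -0.29, close to the median of all genes there. Cdh16, the cadherin of kidney epithelium, had ratios of 0.12, -0.09, 0.43 and 0.34 on KO 1 to KO 4, against -0.39, -0.39, -0.00 and -0.28 on WT 1 to WT 4. KO 2 lay just under WT 3 and the other KO arrays above all WT arrays, and the difference was 0.56 without KO 2. With median centring it was -0.40, below the median of all genes there. Epcam, an adhesion molecule that binds claudin-7, had ratios of 0.37, 0.00, 0.04 and -0.13 on KO 1 to KO 4, against 0.18, 0.14, 0.33 and 0.15 on WT 1 to WT 4. KO 1 was the highest and KO 4 the lowest of all 8 arrays, and the difference was -0.13 ± 0.12. Over the 9 genes of this set other than Cdh1, Tjp1, Ocln, Epcam, Cgn, Crb3, Cdh16 and Pard6a, differences ran from -0.19 to 0.19, and all 9 lay within 2 SE of 0.

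**Figure D5:**
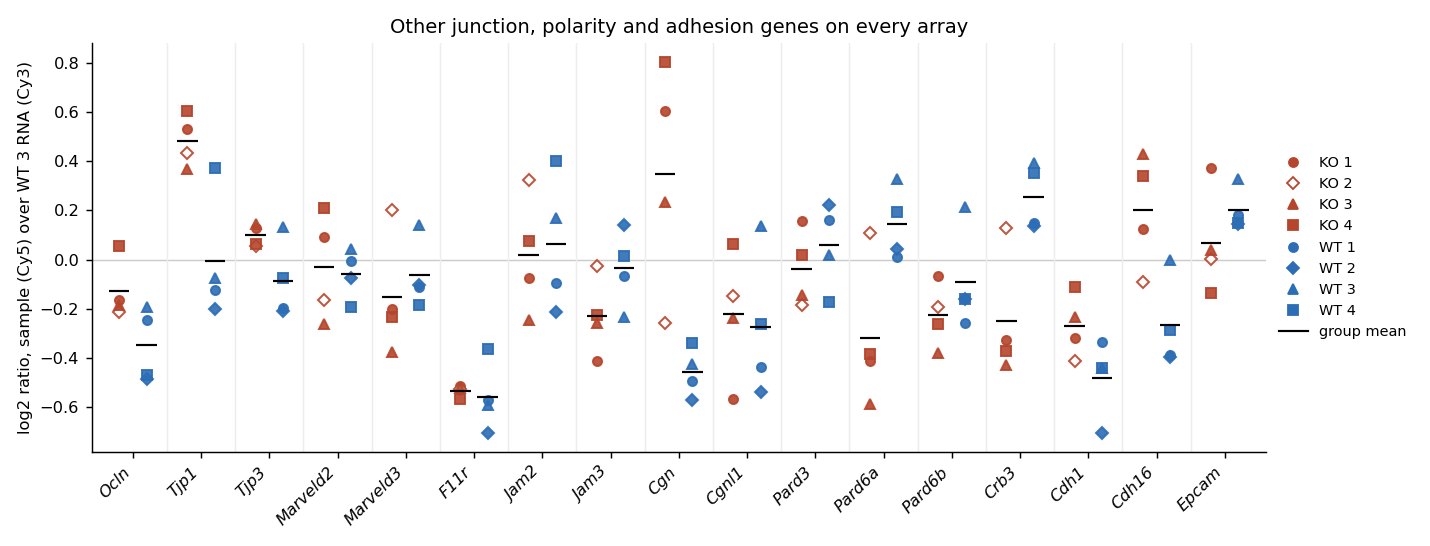
Log2 ratio of the sample (Cy5) to WT 3 RNA (Cy3) for the 17 other junction, polarity and adhesion genes on every array, with KO in red at the left, WT in blue at the right, KO 2 as open diamonds and group means as bars. Cgn lies higher on all KO arrays and Crb3 lower, with KO 2 nearest to WT in both, and the KO arrays of Tjp1 meet only WT 4.

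The scale of the technical spread can be read from the Cy3 channel, which held the same RNA on every array. Over the 7 arrays without KO 3, the SD of log2 Cy3, quantile normalised between arrays, was 0.018 to 0.12 for the member probes, with a median of 0.067, and with KO 3 the median was 0.145. In Cy5 the SD over the WT arrays had a median of 0.151. On the self-hybridised WT 3 array the member probes gave ratios from -0.59 (F11r) to 0.96 (Cldn19), 5 of them beyond 0.5 in size. An offset of that kind is the same for KO and WT arrays as far as it is constant, and it cannot be checked without a dye swap.

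Normalisation moved the level of all genes, members included. Centring each array on its median moved the median of all genes to -0.30 and that of the claudins to -0.38 and of the other genes to -0.38, with 3 of 17 claudins and 2 of 17 other genes positive. Relative to the shift of all genes, both sets then lay lower by under 0.1. Cy5 alone moved the median of all genes to -0.17, that of the claudins to -0.19 and that of the other genes to -0.18. The members with a positive difference under both settings were Cldn8, Cldn14, Cldn23, Cgn and Tjp1. Cldn2, Cldn4, Cldn15, Cgnl1 and Cdh1 also lay above the median of all genes under both, without being positive under both.

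Further genes of the same structures were described from lists by role. Of 22 further tight junction genes 20 were measured, 12 positive and 8 negative, with a median of 0.00. The largest differences were -0.40 ± 0.39 for Clmp and -0.37 ± 0.21 for Sympk, then 0.30 ± 0.09 for Amot, the angiomotin gene, and 0.28 ± 0.30 for Esam, an adhesion molecule of endothelium. Without KO 2 the difference of Clmp was -0.67, and without KO 3 those of Sympk and Esam were -0.18 and 0.17. Only Amot among these 4 had KO arrays wholly above the WT arrays. Of 21 further polarity genes 20 were measured, 8 positive and 12 negative, with a median of -0.02. Mpdz, a multi-PDZ scaffold of tight junctions, differed by -0.46 ± 0.17 and Dlg1, of the Scribble module, by -0.40 ± 0.15. The kinase gene Prkci differed by 0.34 ± 0.14 and Dlg5 by 0.32 ± 0.11. Without KO 3 the difference of Dlg1 was -0.25. KO 2 lay below all WT arrays for Prkci, within them for Dlg5 and just below them for Dlg1.

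All 18 adherens junction genes were measured, 7 positive and 11 negative, with a median of -0.05. Nectin1 differed by -0.58 ± 0.20, Cdh15 by -0.38 ± 0.15, Nectin3 by -0.35 ± 0.16 and Ctnna1, the alpha-catenin gene, by 0.30 ± 0.12. Without KO 3 that of Nectin3 was -0.18. All 22 regulators of junction genes were measured, 7 positive and 15 negative, with a median of -0.09. The largest differences were 0.70 ± 0.23, 0.54 ± 0.25 and 0.52 ± 0.37, for the epithelial transcription factor genes Grhl1, Ovol2 and Grhl3. Twist1, known for repressing E-cadherin, came next at -0.37 ± 0.13. Grhl1 was measured on 3 KO arrays, and its WT 1 value of 0.69 lay among them. For Ovol2 KO 2 lay within the WT arrays, and for Grhl3 WT 1 lay above every KO array but KO 2. The groups of Twist1 overlapped too. No gene of these 4 lists passed limma's threshold over all genes, and 2 further tight junction genes, 6 further polarity genes, 6 adherens junction genes and 4 regulators had an unadjusted p under 0.05, where 24.1% of all genes had one. Without KO 2, 2 further tight junction genes, 3 further polarity genes, 2 adherens junction genes and 1 regulator passed as higher in KO, and 0, 3, 0 and 1 as lower, where 10% of all genes passed as higher and 11.2% as lower.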

How the data were processed

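Expression was measured on 8 Agilent 2-colour arrays, each with 1 sample in Cy5 and WT 3 RNA in Cy3, and with no dye swap. The deposited scanner files hold an intensity per spot and channel. The authors extracted it with Agilent Feature Extraction, version 10.7.3.1, as the submitters' processing notes give it, and the annotation is for the build mm9 per the file headers. A log10 ratio of Cy5 to Cy3 stands beside it, normalised by the authors' scanner software per the file headers. The deposited value table of the series holds that log10 ratio again, in the same direction (r at least 0.999999; column medians 0 on 7 arrays and 0.0152 on KO 3). The labels call the samples of a group biological replicates without naming animals or litters, so the spread behind each p-value is that among these samples and may be partly technical.

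Here, limma 3.58.1 under R 4.3.3 was applied to the median intensities: normexp background correction with an offset of 50, then within-array loess that gave control spots a weight of 0. Outlier spots (non-uniform or population) were dropped and the rest averaged per probe. Probes needed Cy5 well above background on 4 or more of 8 arrays, with at least 3 unflagged values per group, and the brightest probe stood for its gene. Names were matched to the RefSeq table of GRCm38.p6 (21717 of 37850 matched). KO was compared with WT over all 23343 genes by limma's lmFit and eBayes in a 2-sided test, at a Benjamini-Hochberg adjusted threshold of 0.05. Each array read 59305 non-control spots, and the number of arrays limits the precision.

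The members and gene lists were chosen with earlier results of these data known, so differences of members, and their counts past a threshold, are a description and not independent tests. Values on every array are given for Cdh1, Tjp1, Ocln and Epcam, for members whose KO and WT arrays do not overlap, and for the 5 largest differences of each set. The values of Cldn2, Cldn4, Cldn10, Cldn16, Cldn19, Pard3 and Hoxb7 were added after they were seen. Each further list is given by up to 4 genes with the largest differences. Alternatives were other background corrections and normalisations, the deposited log ratios, other filters and variance models, array weights, the mean over probes, the replicate number as a block, and arrays left out. Keeping the marked outlier spots was added after seeing the data. No label says that the numbers shared by KO and WT pair the samples. Correlations of deviations between arrays of the same number ran from -0.236 to 0.112, which cannot settle whether they do.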

Additional observations from a re-analysis of the deposited data

Results flagged for a closer look

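For Cldn2 the array of WT 1 stood apart from its group, with a log2 ratio of 1.62 against 0.40 to 0.52 on the other WT arrays. Of 71 groups of 4 arrays examined this way, 1 was marked, and chance alone marks about 1 in 20. Proximal tubule markers were also highest on WT 1, with a median of 1.12, and their part in the Cldn2 value was not tested.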

How the results depend on the processing

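Over 23 settings and the 34 measured members, 734 of 782 differences moved by less than the spread between replicates and 48 moved by more, 25 of them with median centring and 11 with Cy5 alone. Median centring turned the sign of 12 members and Cy5 alone that of 6, under medians of all genes of -0.30 and -0.17. The number of genes past the threshold was 2 in limma's fit and 0 with median centring, with Cy5 alone and with the replicate block. It was 1 with a normexp offset of 0, without background subtraction and with the mean over probes, 4 with no filter on dim probes, 5 with scaling between arrays and with outlier spots kept, and 11 with an intensity trend and robust hyperparameters. It was 4257 with array weights, 5510 without KO 2 and KO 3, and 1 to 4947 when single arrays were left out, with 4947 without KO 2 and 8 without KO 3. The count of genes whose arrays do not overlap was 2438, against 5499 with median centring (190 higher and 5309 lower), 11010 without KO 2 and KO 3, and 2765 to 7139 without single arrays, the highest without KO 2. The claudin median was -0.38 with median centring and -0.14 to -0.03 without single arrays. The median of the other genes was -0.38 with median centring, -0.18 with Cy5 alone and -0.05 to 0.06 without single arrays. Cldn6 passed the threshold with scaling between arrays, outlier spots kept, no filter, the trend and without KO 3. With array weights the same 9 members passed as without KO 2. The replicate block, for numbers that no label says pair the samples, changed the call of no member. Where no cause is given, the cause was not tested. Depth of signal limits Cldn18, and also Cldn14 and Cldn23, whose Cy3 was well above background on only 4 of 8 arrays. With the deposited log ratios these 2 differed by 0.70 and 0.71, against 0.36 and 0.23 in limma's fit. The 1 slide limits every comparison.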

Other observations

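Markers of cells from which no member is known also varied between arrays. Of 13 nephron progenitor and stroma markers 12 had a negative difference, with a median of -0.37, and the list median was -0.13, 0.90, 0.25 and 0.61 on KO 1 to KO 4, against 1.13, 1.38, 0.04 and 0.57 on WT 1 to WT 4. KO 2 was the highest KO array for this list. Of 9 leukocyte and erythroid markers 6 had a negative difference, with list medians of -0.53, -0.49, -0.95 and -0.48 on KO 1 to KO 4, against 0.08, -0.40, 0.07 and -0.64 on WT 1 to WT 4. None of these markers passed limma's adjusted threshold over all genes, and 2 of the first list and 3 of the second had an unadjusted p under 0.05, where 24.1% of all genes had one. Without KO 2, 1 of the first list passed as higher and 1 as lower, and 0 and 2 of the second, where 10% of all genes passed as higher and 11.2% as lower. Of 8 complete leukocyte and erythroid markers, 3 (37.5%) lay wholly lower in KO, against 7.64% of all genes.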
